A study of Homo sapiens with 9 samples.

Results

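A set of 10 genes that encode erythroid transcription regulators were examined, out of 59653 genes in the deposited count table. The 10 members were taken by symbol: GATA1, GATA2, TAL1, LMO2, LDB1, ZFPM1, KLF1, NFE2, GFI1B and MYB. The rule uses no measured value, although the set was proposed with earlier results of these data known, and 10 of 10 were found. The RNA came from K-562, an established suspension line of human chronic myeloid leukaemia in which many erythroid genes are transcribed. All 9 libraries came from cells of the B2M tdTomato genotype, so mock cells carried the allele of this red fluorescent protein as well. One group of 3 libraries was mock treated. Another 3 came from cells nucleofected with mRNA of the tripartite ETR (a dCas9 fusion, dCas9 being the nuclease-dead form of Cas9) and a full-length gRNA against the B2M promoter. In the last 3 the ETR was the same and the gRNA had 16 nt. What the mock treatment contained, the time of RNA extraction and whether replicates were separate cultures are not stated in the labels. The p-values therefore rest on a spread between libraries that may be technical. The design asks whether the ETR, with either gRNA, altered transcripts other than its target, and the members give that question for the regulators of the line's own lineage.

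GATA1 and GATA2 are zinc finger proteins that bind GATA motifs. GATA2 acts in stem and progenitor cells, and during erythroid maturation GATA1 takes its place on many shared sites. TAL1 is a basic helix-loop-helix protein that binds E-boxes with an E protein partner, LMO2 bridges TAL1 to GATA1, and LDB1 binds LMO2 and joins distant complexes into enhancer-promoter loops. ZFPM1, also called FOG1, is a GATA1 cofactor that does not need to bind DNA itself. KLF1 activates adult globin and many red cell genes through CACCC boxes, NFE2 is the large subunit of the NF-E2 heterodimer, GFI1B is a repressor that recruits LSD1 and CoREST, and MYB sustains proliferation of progenitors.

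Total counts ranged from 23763529 to 33260228 per library. B2M, the targeted gene, went with every label, at 135 to 147 CPM (the count of a gene relative to the TMM-scaled total of its library) in mock, 9.09 to 10.8 CPM with the full-length gRNA and 16.4 to 22.3 CPM with the 16-nt gRNA. The ETR libraries of replicate 3 stood apart on the first principal component, at 30.7 and 26.9, while the other 7 libraries lay between -19.1 and 6.84. In each group 1 library differed more from its replicates than they did from each other: mock replicate 3 (chi-square per degree of freedom of 25.8 and 28.0 against 12.0), full-length gRNA replicate 3 (29.7 and 31.0 against 13.5) and 16-nt gRNA replicate 2 (26.5 and 26.2 against 13.2). Lymphocyte, monocyte and granulocyte, and megakaryocyte markers were low, while epithelial, fibroblast and endothelial lists reached the level of the members through a few genes. Of 13 lymphocyte markers 4 had 0 counts in every library (CD8A, MS4A1, TRAC and NKG7), and the list summed to 2.33 to 3.63 CPM in mock, 2.60 to 3.32 CPM with the full-length gRNA and 2.91 to 4.20 CPM with the 16-nt gRNA. The 11 monocyte and granulocyte markers, S100A8 and S100A9 at 0 counts, summed to 0.400 to 0.657 CPM in mock, 0.841 to 0.894 CPM with the full-length gRNA and 0.775 to 1.56 CPM with the 16-nt gRNA. Megakaryocyte markers, GP1BA among those at 0 counts, summed to 11.3 to 12.6 CPM in mock, 10.7 to 13.0 CPM with the full-length gRNA and 10.2 to 13.8 CPM with the 16-nt gRNA. The 10 epithelial markers (KRT5 and KRT14 at 0 counts) summed to 439 to 557, 462 to 519 and 453 to 561.6 CPM in the same order of groups, led by KRT8 at 183 and KRT18 at 137 CPM in the mock mean. The 11 fibroblast and endothelial markers (KDR at 0 counts) summed to 150 to 158, 131 to 172 and 130 to 159 CPM, led by FN1 at 133 CPM in the mock mean. The labels give the cell type as lymphoblast. Their parts in the results were not tested.

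Set per length of exon, the members spanned a wide range in mock cells, with KLF1 and GATA1 at the top and ZFPM1 at the bottom. KLF1 stood at 317 ± 28.3 TPM (counts per base of exon, relative to their sum over all genes of the library) and GATA1 at 300 ± 21.4 TPM, followed by GATA2 at 191 ± 25.9 TPM (SD, n = 3 each). KLF1 and GATA1 ranked 229th and 246th of the 33525 genes with a count, and GATA2 ranked 431st. NFE2 at 91.8 ± 2.30 TPM, LMO2 at 91.3 ± 4.44 TPM, LDB1 at 74.2 ± 4.88 TPM, GFI1B at 70.5 ± 7.18 TPM and MYB at 67.2 ± 9.62 TPM formed a middle group (SD, n = 3 each). TAL1 stood at 29.1 ± 2.89 TPM and ZFPM1 at 13.4 ± 2.42 TPM (SD, n = 3 each). In this order 4 pairs of neighbours overlapped between mock libraries: KLF1 with GATA1, NFE2 with LMO2, LDB1 with GFI1B, and GFI1B with MYB. GATA1 was above GATA2, LMO2 above LDB1, MYB above TAL1 and TAL1 above ZFPM1 in 9 of 9 libraries, whereas KLF1 was above GATA1 in 7 of 9. By CPM without length the order changed and GATA2, whose merged exons measure 4475 nt against 1492 nt for GATA1, came first. The merged exons of a gene include those of rarely used transcripts, so TPM of a gene with many annotated exons may be an underestimate. One short RNA, RN7SL1, took 28.6% to 41.9% of TPM, which moves TPM of all other genes between libraries, and comparisons between groups below therefore use CPM. On CPM per kilobase the order of the 10 members was the same.

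**Figure D1:**
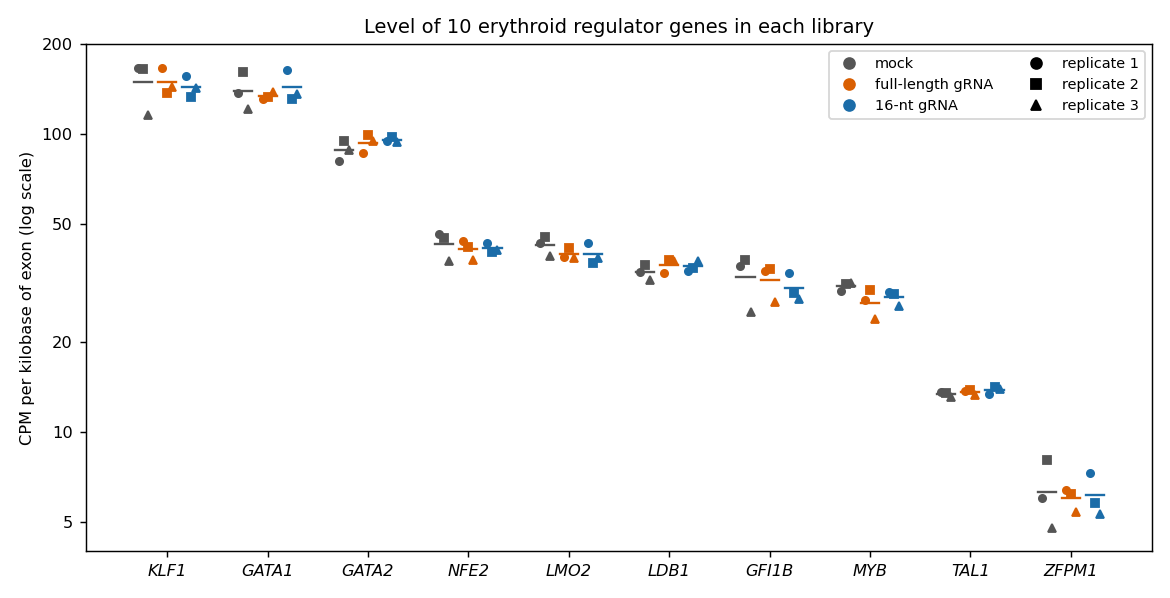
Each point is 1 library, plotted as CPM per kilobase of exon on a log axis, with genes on the horizontal axis ordered by their mock mean, colours for the 3 groups, shapes for replicate numbers and short lines for group means. The 3 groups of a gene lie close together and overlap, except MYB in mock and with the 16-nt gRNA, while the genes span from about ZFPM1 at 6.31 to KLF1 at 149 in the mock mean.

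The GATA1 locus is on chromosome X, plus strand, 48786562 to 48794311 of GRCh38. It had 204, 240 and 181 CPM in mock replicates 1 to 3, 196, 198 and 207 CPM with the full-length gRNA, and 244, 196 and 203 CPM with the 16-nt gRNA. The mock libraries alone covered nearly the whole range, and both gRNA groups overlapped them. In bulk RNA a smaller share of cells with a transcript and less of it per cell cannot be told apart. Its log2 fold change against mock was -0.057 (SE 0.11, edgeR adjusted p = 0.992) with the full-length gRNA and 0.041 (SE 0.11, edgeR adjusted p = 0.978) with the 16-nt gRNA. GATA2 lies on the minus strand of chromosome 3 at 128479427 to 128493201. Its values were 364, 424 and 395 CPM in mock, 385, 443 and 424 CPM with the full-length gRNA and 424, 438 and 419 CPM with the 16-nt gRNA. Mock replicate 1 was the lowest of the 9 and the groups overlapped, with log2 fold changes of 0.083 (SE 0.086) and 0.11 (SE 0.086). The 95% confidence intervals of its fold against mock ran from 0.933 to 1.20 and from 0.953 to 1.23. GATA2-AS1 lies on the opposite strand within the annotated span of GATA2, shares 0 nt of exon with it, and stood at 38.2 ± 1.45 CPM in mock (SD, n = 3). Of the other 6 genes of the GATA family list, TRPS1, a GATA-type repressor gene, stood at 39.0 ± 2.25 CPM and GATA5 at 1.37 ± 0.451 CPM in mock (SD, n = 3 each), and 0 of these 2 were called. The other 4 were too low to be tested, and among them GATA3, a T cell factor gene, stood at 0.0730 ± 0.0428 CPM in mock (SD, n = 3).

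TAL1 was the steadiest of the 10 genes. It lies on the minus strand of chromosome 1 at 47216290 to 47232220, and its values were 77.8, 77.3 and 75.0 CPM in mock, 78.3, 79.1 and 76.3 CPM with the full-length gRNA and 76.3, 81.1 and 79.6 CPM with the 16-nt gRNA. All 9 libraries thus fell in a band whose top was 1.08 times its bottom. The coefficient of variation over the 9 libraries was 2.42%, beside 2.16% from counting alone at its mean count. Only 0.521% of the 9023 tested genes with a mean of at least 10 CPM had a smaller spread within groups. Its log2 fold changes against mock were 0.022 (SE 0.070) and 0.043 (SE 0.070).

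LMO2 (minus strand, chromosome 11, 33858576 to 33892076) had 124, 131 and 113 CPM in mock, 112, 120 and 111 CPM with the full-length gRNA and 125, 107 and 111 CPM with the 16-nt gRNA. Mock replicate 3 sat among the gRNA libraries, so the groups overlapped. The log2 fold change was -0.10 (SE 0.085) with each gRNA against mock. LDB1 (minus strand, chromosome 10, 102106489 to 102120368) leaned the other way, at 130, 137 and 122 CPM in mock, 129, 143 and 142 CPM with the full-length gRNA and 131, 134 and 142 CPM with the 16-nt gRNA. Its log2 fold changes were 0.085 (SE 0.079) and 0.063 (SE 0.079), both within the spread of the libraries (edgeR adjusted p = 0.992 and 0.978). Leaving out all 3 replicate 3 libraries, the value for the 16-nt gRNA was -0.010.

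ZFPM1, the GATA1 cofactor, was the least abundant and the most variable member. Its locus is on chromosome 16, plus strand, 88453280 to 88537031, and its values were 37.2, 49.9 and 29.5 CPM in mock, 39.4, 38.3 and 33.4 CPM with the full-length gRNA and 45.0, 35.7 and 32.9 CPM with the 16-nt gRNA. The lowest and the highest of the 9 libraries were both mock libraries. Its log2 fold changes against mock were -0.072 (SE 0.16) and -0.041 (SE 0.16), and 97.6% of the 9023 genes had a smaller spread within groups.

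KLF1 (minus strand, chromosome 19, 12884422 to 12887201) had 267, 266 and 187 CPM in mock, 269, 221 and 231 CPM with the full-length gRNA and 252, 214 and 229 CPM with the 16-nt gRNA. Mock replicates 1 and 2 were near the top and mock replicate 3 was the lowest of the 9. The log2 fold changes were 0.0015 (SE 0.13) and -0.052 (SE 0.13). NFE2 (minus strand, chromosome 12, 54292111 to 54301015) had 109, 105 and 88.5 CPM in mock, 103, 98.6 and 89.5 CPM with the full-length gRNA and 102, 94.7 and 96.5 CPM with the 16-nt gRNA. Mock replicate 3 was again the lowest library, and the log2 fold changes were -0.055 (SE 0.090) and -0.049 (SE 0.090).

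GFI1B (plus strand, chromosome 9, 132944000 to 132991687) had 220, 231 and 154 CPM in mock, 211, 215 and 167 CPM with the full-length gRNA and 208, 179 and 171 CPM with the 16-nt gRNA. The replicate 3 library was the lowest in each of the 3 groups. Its log2 fold changes were -0.030 (SE 0.14) and -0.12 (SE 0.14). The 16-nt interval was among the widest, from 0.750 to 1.13 of the mock level. GFI1B shares 349 of its 6104 nt of exon with TSC1 on the opposite strand, and how reads there were counted is not given in the sources used here. TSC1, a subunit of the tuberous sclerosis complex, stood at 49.5 ± 1.97 CPM in mock (SD, n = 3). The same limit holds for TAL1, which shares 845 of its 5700 nt of exon with AL135960.1 (0 to 3 counts per library). It also holds for MYB, which shares 103 of its 5500 nt with MYB-AS1 (0 to 2 counts per library). Both of these genes lie on the opposite strand as well.

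MYB came closest to a difference from mock. Its locus is on chromosome 6, plus strand, 135181308 to 135219173, and its values were 164, 172 and 175 CPM in mock, 153, 165 and 132 CPM with the full-length gRNA and 163, 160 and 146 CPM with the 16-nt gRNA. All 3 libraries of the 16-nt gRNA lay below all 3 mock libraries, replicate 1 only narrowly, while full-length gRNA replicate 2 lay within the mock range. The log2 fold change was -0.19 (SE 0.090, 95% CI -0.38 to 0.0049, edgeR adjusted p = 0.992) with the full-length gRNA and -0.13 (SE 0.090, 95% CI -0.32 to 0.066, edgeR adjusted p = 0.978) with the 16-nt gRNA, so neither was called. The lowest values were in the 2 ETR replicate 3 libraries that stood apart. Without both of them the log2 fold changes were -0.10 and -0.078. Without all 3 replicate 3 libraries they were -0.084 and -0.059.

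Across the members, no regulator was called in any comparison. With the full-length gRNA against mock, edgeR called 0 of 10 members at an adjusted p under 0.05, beside 0.00657% of all 15213 tested genes, which is B2M alone. DESeq2 called 0 of 10 members, and 0 of 10 had an unadjusted edgeR p under 0.05, as did 2.86% of all tested genes. Of the members 4 had a positive and 6 a negative log2 fold change, with a median of -0.043 against 0.00021 over all tested genes. The groups overlapped for all 10 members, in a comparison where 3.39% of all tested genes were higher and 3.52% lower without overlap. All 10 intervals lay within 1.5-fold in either direction, as did 70.5% of those of all tested genes, and 7 lay within 1.25-fold, as did 41.0%. The 3 wider ones were those of ZFPM1, GFI1B and MYB. The shares over all tested genes, here and in the comparisons below, include genes of low counts, whose spread is wider. The median SD within groups was 0.155 on the log2 scale over all tested genes. It was 0.118 for the 9023 with a mean of at least 10 CPM and 0.113 for the members. Interval shares among genes of like level were not computed, so the shares above do not set the members apart from such genes. Over the 10 members the lowest interval bound was 0.754 and the highest 1.21 times the mock level.

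With the 16-nt gRNA against mock, edgeR and DESeq2 again called 0 of 10 members, beside 0.00657% of all tested genes. None of the 10 had an unadjusted edgeR p under 0.05, as did 2.48% of all tested genes. There were 4 positive and 6 negative log2 fold changes, with a median of -0.045 against 0.0019 over all tested genes. MYB was the 1 member whose groups did not overlap, in a comparison where 4.80% of all tested genes were lower and 4.41% higher without overlap. All 10 intervals lay within 1.5-fold, beside 70.4% of all tested genes, and 8 within 1.25-fold, beside 41.5%, ZFPM1 and GFI1B being the other two. The bounds ran from 0.750 to 1.23 times the mock level. Both comparisons share the mock libraries, so their values are not independent of each other.

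Between the gRNA lengths, which share no library, edgeR and DESeq2 called 0 of 10 members, beside 0.00657% of all tested genes. Same-numbered libraries of these groups deviated together, but the fit has no replicate block. Its SEs and intervals are thus unpaired and do not measure the spread within pairs. With the block 0 members were called, and the lowest edgeR adjusted p of a member in any comparison was 0.820. At an unadjusted edgeR p under 0.05 there were 0 members, beside 0.927% of all tested genes. GATA1 had the highest log2 fold change of the 16-nt against the full-length gRNA, 0.098 (SE 0.11), and GFI1B the lowest, -0.089 (SE 0.14). LMO2, NFE2, TAL1 and LDB1 lay at -0.0020, 0.0057, 0.021 and -0.021. The groups overlapped for all 10 members, while 2.80% of all tested genes were higher and 2.78% lower without overlap. In this comparison 6 members were positive and 4 negative, with a median of 0.013 against 0.0035 over all tested genes. B2M itself was higher with the 16-nt gRNA, by 0.99 on the log2 scale (SE 0.12, edgeR adjusted p = 0.00580), but without full-length gRNA replicate 2 the edgeR adjusted p was 0.12. All 10 members had intervals within 1.5-fold, beside 72.3% of all tested genes, and 7 within 1.25-fold, beside 46.9%, the wider ones being those of GATA1, ZFPM1 and GFI1B. The bounds ran from 0.766 to 1.29 times the level with the full-length gRNA.

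**Figure D2:**
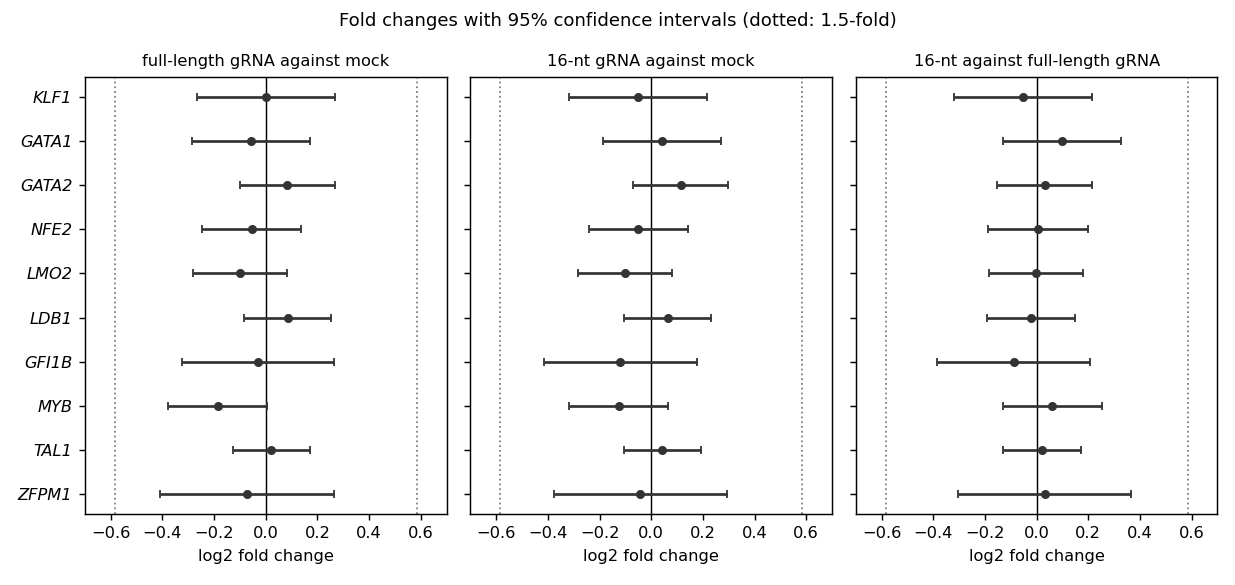
Points are edgeR log2 fold changes of the 10 members and bars their 95% confidence intervals, in 1 panel for each comparison, with the horizontal axis in log2 units and dotted lines at 1.5-fold. Every bar crosses 0 and ends inside the dotted lines, and MYB with the full-length gRNA comes nearest to leaving 0, with an upper end of 0.0049.

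Replicate libraries of 1 group differed by up to 1.69-fold (ZFPM1 in mock), and many members were low in the same library, most of all in mock. Mock replicate 3 was the lowest of the 3 mock libraries for 8 of 10 members, as it was for 36.4% of all tested genes, and the exceptions were GATA2 and MYB, both lowest in mock replicate 1. Its deviations from the mock mean on the log2 CPM scale were -0.37 for ZFPM1, -0.36 for GFI1B, -0.34 for KLF1, -0.19 for GATA1, -0.18 for NFE2, -0.12 for LMO2, -0.088 for LDB1 and -0.032 for TAL1. Over the 10 members the median deviation of this library was -0.15, against 0.0030 over all tested genes. RN7SL1 took 4.003% of the counts of mock replicate 3 and 5.56% and 5.22% in mock replicates 1 and 2. In replicates 1 to 3 it took 4.76%, 4.10% and 6.66% with the full-length gRNA. With the 16-nt gRNA it took 5.39%, 3.36% and 5.95%. Its part in these values was not tested. Full-length gRNA replicate 3 was the lowest of its group for 6 members (TAL1, LMO2, ZFPM1, NFE2, GFI1B and MYB), beside 38.2% of all tested genes. With the 16-nt gRNA the lowest library was replicate 2 for GATA1, LMO2, KLF1 and NFE2 (40% of members, beside 30.6% of all tested genes). It was replicate 3 for GATA2, ZFPM1, GFI1B and MYB (40%, beside 33.5%). Member counts ranged from 793 to 14013 per library, and counting alone gives a coefficient of variation of 0.937% for GATA2 to 3.09% for ZFPM1, which is small beside the observed one except for TAL1 (2.16% of 2.42%). The coefficients over the 9 libraries were 16.7% for ZFPM1, 14.1% for GFI1B, 11.9% for KLF1, 10.0% for GATA1, 8.50% for MYB, 7.08% for NFE2, 6.94% for LMO2, 6.31% for GATA2 and 5.23% for LDB1. The median spread within groups was 0.11 on the log2 scale for the members and 0.12 for the 9023 genes with a mean of at least 10 CPM.

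**Figure D3:**
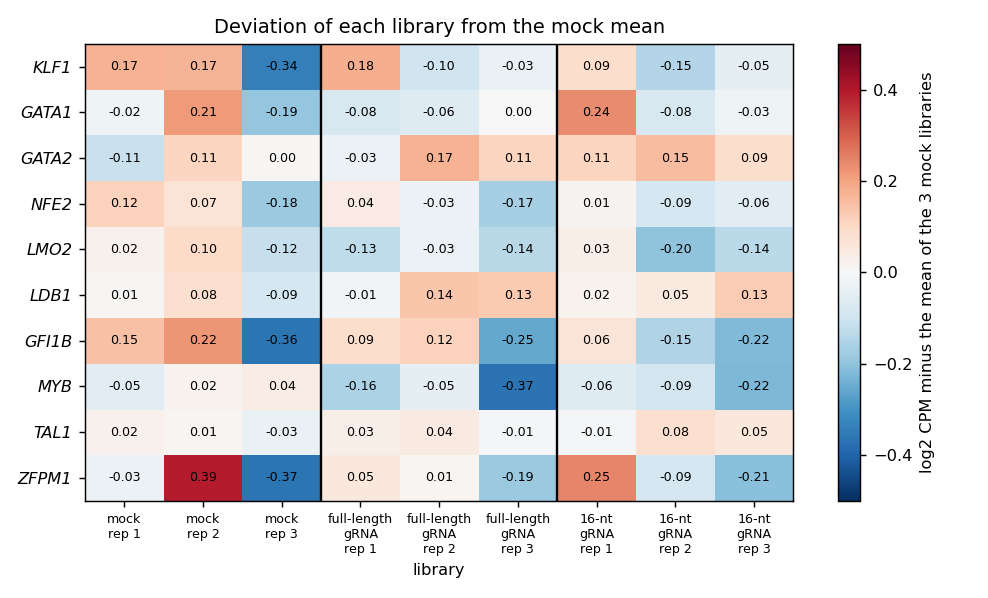
Each cell gives the log2 CPM of a member (rows) in a library (columns) minus the mean of the 3 mock libraries, with red above and blue below, and black lines between the groups. The third mock column holds the deepest blue cells of KLF1, GFI1B and ZFPM1, with -0.34, -0.36 and -0.37, the MYB row is deepest at -0.37 in full-length gRNA replicate 3, and the TAL1 row stays pale throughout.

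Ratios of members within a library need no scaling between libraries. Per base of exon, GATA1 counts exceeded those of GATA2 in each library, by 1.68, 1.69 and 1.38 times in mock, 1.52, 1.34 and 1.46 times with the full-length gRNA and 1.73, 1.34 and 1.46 times with the 16-nt gRNA. The groups overlapped (exact two-sided permutation p = 0.30 and 0.70 against mock). KLF1 exceeded MYB by 5.56, 5.27 and 3.64 times in mock, 6.004, 4.57 and 5.99 times with the full-length gRNA and 5.27, 4.57 and 5.36 times with the 16-nt gRNA, with mock replicate 3 the lowest of the 9. LDB1 relative to LMO2 was the 1 ratio whose groups did not overlap in a comparison. It was 0.804, 0.804 and 0.829 in mock and 0.880, 0.913 and 0.980 with the full-length gRNA, a log2 difference of 0.18 (SE 0.048, exact two-sided permutation p = 0.10, adjusted 0.847 over 18 tests of 6 ratios). That p is the smallest that 3 against 3 libraries allow, so no ratio could pass. Groups of 3 separate in this way with a probability of 0.10 when nothing differs. A single separation among 18 tests therefore does not mark this ratio out. With the 16-nt gRNA the LDB1 to LMO2 ratio was 0.808, 0.965 and 0.974, overlapping mock through replicate 1. TAL1 to LMO2 ranged from 0.300 to 0.387, ZFPM1 to GATA1 from 0.0391 to 0.0504 and NFE2 to GFI1B from 1.18 to 1.48 over the 9 libraries, and their groups overlapped in every comparison.

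**Figure D4:**
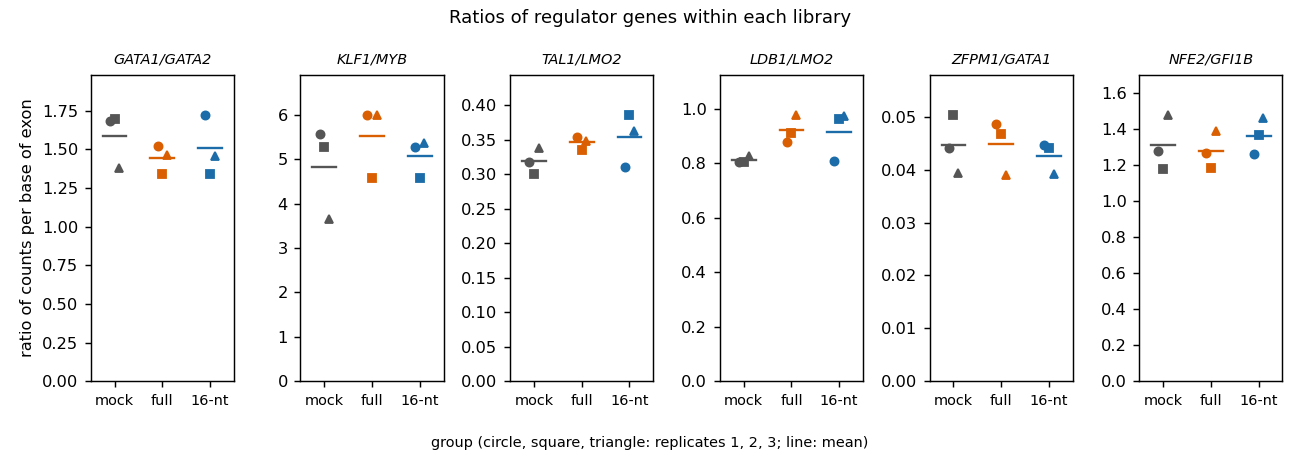
Each panel shows 1 ratio of counts per base of exon, on a linear axis from 0, for every library, with circles, squares and triangles for replicates 1 to 3 and lines for group means. Only LDB1/LMO2 separates a gRNA group from mock, at 0.880 to 0.980 with the full-length gRNA against 0.804 to 0.829 in mock. Such a separation is not unusual among 18 tests.

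RefSeq (GRCh38.p14) promoter windows, running from 250 bases before to 50 bases after an annotated start, were found for 8 of the 10 members, 11 windows in all. LMO2 and NFE2 had none. The 250 bases before the start are shown for the 3 windows that hold a match to AGATAA or TGATAA. These are 2 forms of the motif that GATA1 and GATA2 bind, and forms ending in G were neither searched nor marked. ZFPM1, whose window had the most CpG sites, is shown as well. Sequences read 5′ to 3′ along the gene's strand, and capitals mark the GATA match, which on the printed strand reads TTATCA or TTATCT where it lies on the other strand. KLF1 is the window at chr19:12887202-12887451, minus strand. GFI1B is the second of 2 windows, at chr9:132978444-132978693, plus strand. TAL1 is the first of 2 windows, at chr1:47232336-47232585, minus strand. ZFPM1 is at chr16:88453030-88453279, plus strand, and holds no match.
KLF1: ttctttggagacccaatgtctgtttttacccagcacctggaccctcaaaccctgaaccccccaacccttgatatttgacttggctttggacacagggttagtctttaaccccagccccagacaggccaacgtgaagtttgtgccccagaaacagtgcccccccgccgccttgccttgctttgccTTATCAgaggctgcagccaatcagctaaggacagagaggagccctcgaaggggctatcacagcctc
GFI1B: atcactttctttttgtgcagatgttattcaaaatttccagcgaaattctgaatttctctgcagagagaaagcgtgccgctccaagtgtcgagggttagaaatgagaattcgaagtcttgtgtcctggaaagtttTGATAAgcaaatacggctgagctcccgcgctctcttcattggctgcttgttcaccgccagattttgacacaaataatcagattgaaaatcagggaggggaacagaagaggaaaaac
TAL1: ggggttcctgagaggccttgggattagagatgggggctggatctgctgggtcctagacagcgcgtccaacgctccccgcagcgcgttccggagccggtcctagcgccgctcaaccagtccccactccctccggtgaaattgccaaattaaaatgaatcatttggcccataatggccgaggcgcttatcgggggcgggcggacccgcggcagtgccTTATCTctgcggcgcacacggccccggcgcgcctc
ZFPM1: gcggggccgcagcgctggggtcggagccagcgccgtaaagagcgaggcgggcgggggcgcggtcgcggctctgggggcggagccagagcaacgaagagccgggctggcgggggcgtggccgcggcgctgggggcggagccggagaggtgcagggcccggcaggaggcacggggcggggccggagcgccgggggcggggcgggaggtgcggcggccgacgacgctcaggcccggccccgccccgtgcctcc

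The match began 66 bases before the start of KLF1, 116 before that of GFI1B and 35 before that of TAL1. Searched on both strands, AGATAA or TGATAA occurred in 3 of the 11 member windows and in 16.3% of all 35116 RefSeq windows. CACCC, the core of the KLF1 box, occurred in 7 of the 11 and in 59.9% of all windows, with 4 matches each in GATA1 and in the upstream window of GATA2. CANNTG, the E-box that TAL1 binds with its partner, occurred in 5 of the 11 and in 68.7% of all windows. TGAGTCA, the AP-1-like core of NF-E2 sites, occurred in 0 of the 11 and in 4.95% of all windows. AACNG, the MYB core, occurred in 6 (77.2% of all) and AATCA, the GFI1 core read on either strand, in 4 (34.5% of all). These matches describe letters and not bound sites. The KLF1 window held 6 CpG sites and the GATA1 window 7, below the median of 14 over all windows, while ZFPM1 held 47, MYB 35, and TAL1 and GATA2 30 and 29 in their upstream windows. The members with the widest spread therefore had both CpG-poor (KLF1, GFI1B) and CpG-rich (ZFPM1) windows.

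Most partners of the complex were present and those tested were likewise uncalled, and in each list below DESeq2 also called 0 genes. Beside every list stands a share of 0.00657% of all tested genes called by edgeR in each comparison. With 1 gene called per comparison, 0 called in a list does not set it apart. Unadjusted edgeR p was under 0.05 for 2.86% of all tested genes with the full-length gRNA against mock. It was for 2.48% with the 16-nt gRNA against mock and 0.927% between gRNA lengths. Of 13 further partners, 11 were tested and 0 were called with either gRNA against mock, with 6 higher and 5 lower with the full-length gRNA (median log2 fold change 0.053) and 5 higher and 6 lower with the 16-nt gRNA (-0.013). At an unadjusted edgeR p under 0.05 there were 0 in either. TCF3, which encodes the E proteins that pair with TAL1, stood at 179 ± 20.4 CPM in mock, and LYL1, the closest relative of TAL1, at 176 ± 33.3 CPM (SD, n = 3 each). LYL1 also had its lowest mock value in replicate 3, 138 CPM against 190 and 200. LDB2, the paralog of LDB1, had 0 counts in every library, which allows up to 0.126 CPM in the shallowest, for counting error only. RUNX1T1 had 0 to 2 counts per library, and neither LDB2 nor RUNX1T1 was tested. SSBP2, an LDB1 stabiliser, and TCF4, another E protein gene, had the smallest p of this list against mock. The log2 fold change was 0.16 (SE 0.11) for SSBP2 with the full-length gRNA and -0.20 (SE 0.11) for TCF4 with the 16-nt gRNA.

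All 22 corepressor and coactivator genes were tested and 0 were called, with 11 higher and 11 lower with each gRNA. SMARCA4, the SWI/SNF ATPase, stood at 387 ± 14.3 CPM and RBBP4, a histone-binding subunit of NuRD, at 267 ± 19.2 CPM in mock (SD, n = 3 each). The acetyltransferase gene EP300, the 1 gene of the list with an unadjusted p under 0.05, differed from mock by 0.16 on the log2 scale with the full-length gRNA (SE 0.076, edgeR adjusted p = 0.992). Of 8 NF-E2 partners and relatives 2 were higher and 6 lower with the full-length gRNA and 4 of each with the 16-nt gRNA, with 0 called and 0 at an unadjusted edgeR p under 0.05. Among them NFE2L1 stood at 290 ± 4.14 CPM and MAFG, a small MAF subunit, at 151 ± 15.4 CPM in mock (SD, n = 3 each). BACH1, a heme-sensing repressor of NF-E2 sites, had log2 fold changes of -0.15 (SE 0.091) and -0.16 (SE 0.091). Of 27 other erythroid and globin switching regulators 11 were higher with the full-length and 12 with the 16-nt gRNA, with 0 called. MYBL2, a cell cycle relative of MYB, stood at 296 ± 22.2 CPM and STAT5B at 280 ± 7.25 CPM in mock (SD, n = 3 each). NR3C1, the glucocorticoid receptor gene, was the 1 gene with an unadjusted p under 0.05 against mock, at 3.40, 2.63 and 2.91 CPM in mock, 2.14, 1.62 and 2.27 CPM with the full-length gRNA and 1.77, 1.28 and 2.60 CPM with the 16-nt gRNA (log2 fold changes -0.57, SE 0.25, and -0.67, SE 0.25, edgeR adjusted p = 0.992 and 0.978).

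Of 34 genes described as targets of these factors 29 were tested and 0 were called. With the full-length gRNA 20 were higher and 9 lower (median log2 fold change 0.050), with the 16-nt gRNA 13 and 16 (-0.021), and between the gRNA lengths 8 were higher and 21 lower with the 16-nt gRNA (-0.046). Over all tested genes the numbers higher and lower were 7618 and 7595, 7693 and 7520, and 7845 and 7368 in the same order. Genes of the list were measured in the same libraries, so their signs are not independent of each other. HBE1, the embryonic epsilon globin gene, was the 1 gene of the list with an unadjusted p under 0.05 between gRNA lengths, at 8.63, 11.03 and 6.98 CPM with the full-length and 4.61, 6.09 and 5.74 CPM with the 16-nt gRNA (log2 fold change -0.70, SE 0.21, edgeR adjusted p = 0.9999). Mock lay between 5.39 and 9.29 CPM, overlapping both. HBB, an adult beta globin gene, had 740, 673 and 402 CPM in mock, 717, 638 and 584 CPM with the full-length gRNA and 601, 425 and 615 CPM with the 16-nt gRNA. HBB is commonly described as scarce in K-562, and gene counts do not show where these reads came from, so its values are uncertain. HBG2, a fetal gamma globin gene, had 554, 583 and 379 CPM in mock, and its counts are uncertain because HBG1 is a near-identical copy. Both had their lowest value of all 9 libraries in mock replicate 3. The target list had its lowest mock value there for 17 of 29 genes (58.6%, against 36.4% of all tested genes), with a median deviation of -0.16 on the log2 scale. Other libraries were low for this list too, with full-length gRNA replicate 3 the lowest of its group for 18 of 29 genes (62.1%, against 38.2%) and 16-nt gRNA replicate 2 for 15 (51.7%, against 30.6%). Low libraries were not particular to the target list. Mock replicate 3 was the lowest for 6 of 9 tested factors of other blood lineages (66.7%), but for 7 of 22 corepressors and coactivators (31.8%). Of those 22, full-length gRNA replicate 3 was the lowest of its group for 17 (77.3%) and 16-nt gRNA replicate 3 for 13 (59.1%, against 33.5% of all tested genes). The transferrin receptor gene TFRC did not have its lowest mock value in replicate 3, at 636, 502 and 525 CPM in mock. It was the 1 gene of the list with an unadjusted p under 0.05 against mock, with log2 fold changes of -0.27 (SE 0.10) with each gRNA (edgeR adjusted p = 0.992 and 0.978). Of 22 factors of other blood lineages 9 were tested, with 0 called and 0 at an unadjusted edgeR p under 0.05. The smallest p was that of FOXP3, a regulatory T cell factor gene at 0.759 ± 0.325 CPM in mock (SD, n = 3), with log2 fold changes of -0.60 (SE 0.43) and -0.39 (SE 0.42). FLI1, a megakaryocytic ETS factor gene, had 0 counts in every library, SPI1, the myeloid factor PU.1, stood at 1.46 ± 0.445 CPM, and CEBPB and HHEX led the list at 91.6 ± 15.4 and 46.3 ± 1.81 CPM in mock (SD, n = 3 each).

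Genes next to the members gave a local view of each locus. COPZ1, a coatomer subunit gene, begins 187 bases from NFE2 and stood at 215 ± 13.8 CPM in mock, and HNRNPA1, an RNA-binding protein gene 5023 bases away on the other side, at 814 ± 89.6 CPM (SD, n = 3 each). KLF1 lies between DNASE2, the lysosomal nuclease gene of erythroblast nucleus digestion, 2956 bases away and GCDH 3959 bases away. DNASE2 stood at 94.2 ± 20.5 CPM and GCDH at 41.6 ± 2.59 CPM in mock (SD, n = 3 each). HDAC6, 7066 bases from GATA1, STIL, 17919 bases from TAL1, and HBS1L and AHI1 on the sides of MYB, 78252 and 64359 bases away, stood at 108, 46.3, 144 and 38.1 CPM in the mock mean. None of these neighbours was called by edgeR in a comparison with mock. Over the 9 libraries, the genes whose log2 CPM followed a member most closely, out of 9023, were TBC1D10B for GATA1 (Pearson r = 0.991), TPP1 for GFI1B (0.989), GPSM2 for MYB (0.985), HEXD for LDB1 (0.984), KLF1 with RPL10 (0.982), NFE2 with MRPL10 (0.982), ZFPM1 with CDT1 (0.973), GATA2 with CCAR2 (0.971), LMO2 with H19 (0.958) and TAL1 with RGS12 (0.843). These are the highest values found in a search over many genes, the points share libraries and depth, and they are given as a description only.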

How the data were processed

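The table deposited by the authors holds raw counts of reads per gene. The submitters' processing notes name STAR 2.7.6a, Trim Galore 0.6.6, Subread 2.0.1 with featureCounts, and GRCh38. Strand setting, annotation release and handling of reads that map to several places: not given in the sources used here. Exon lengths, given by the authors in other columns of the table, served for TPM and CPM per kilobase.

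Groups and replicate numbers came from the sample titles. Within-group pairs of libraries had a chi-square per degree of freedom of 12.0 to 31.0, a spread beyond that of counting alone. Each library was treated as 1 replicate, although this spread does not show whether the replicates were separate cultures. Groups were compared by quasi-likelihood tests (two-sided; edgeR 4.0.16, R 4.3.3) with TMM scaling, filterByExpr (minimum count 10), 1 fit of all 9 libraries without a replicate block, and Benjamini-Hochberg adjustment over 15213 genes, called under 0.05. DESeq2 1.42.0 was the alternative tool. Ratios were compared with exact permutation tests in scipy 1.17.1. The scripts were tested on simulated counts.

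Same-numbered libraries of the 2 gRNA groups deviated together (correlations 0.36, 0.20 and 0.57), which pairs them. Those of mock did not in every pair (0.20, 0.033 and 0.21 with the full-length and 0.061, -0.19 and 0.20 with the 16-nt gRNA).

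Members and gene lists were chosen with earlier results of these data known. Named beside the members were, from each list, the genes with the highest mock CPM and the smallest p against mock, the nearest expressed neighbours within 100 kb and the gene most like each member. Other genes were named with their values already seen. Some genes that the rule names are not reported here. Promoter sequences are RefSeq's.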

Additional observations from a re-analysis of the deposited data

How the results depend on the processing

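With 793 to 14013 counts per member and library, the coefficient of variation over libraries was at least 3.18 times that of counting alone for 9 of 10 members, and for TAL1 its value of 2.42% was close to the 2.16% of counting alone. In each of the 3 comparisons 0 members were called under every alternative run: RLE size factors, DESeq2, no filter, a filter of 1 CPM in 3 libraries, the replicate block, only the 6 libraries compared, both ETR replicate 3 libraries left out, all replicate 3 libraries left out (an alternative chosen after seeing the data), and each library left out in turn. The lowest adjusted p of a member was 0.535, for MYB without full-length gRNA replicate 1. With the replicate block the lowest was 0.820 and the block changed no call.

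Over all genes, no filter on low counts gave 6 called genes with the full-length gRNA, 13 with the 16-nt gRNA and 4 between gRNA lengths. With only the 6 libraries compared 0 were called between gRNA lengths (B2M 0.99, edgeR adjusted p = 0.13), where leaving out 1 library gave 0 to 1. Signs near 0 turned in 8 of 240 values with these alternatives. GFI1B with the full-length gRNA was 0.078 and ZFPM1 with the 16-nt gRNA 0.049 without both ETR replicate 3 libraries. Without all replicate 3 libraries KLF1 with the full-length gRNA was -0.12, and GATA1 and LDB1 with the 16-nt gRNA were -0.014 and -0.010. Between gRNA lengths NFE2 was -0.0023 without a filter, -0.042 without both ETR replicate 3 libraries and -0.042 without all replicate 3 libraries.

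Leaving out 1 library, 17 of 30 log2 fold changes of members took both signs. With the full-length gRNA the ranges were -0.15 to 0.056 for GATA1, -0.24 to 0.15 for ZFPM1, -0.15 to 0.084 for KLF1, -0.14 to 0.0011 for NFE2 and -0.19 to 0.079 for GFI1B. With the 16-nt gRNA they were -0.064 to 0.15 for GATA1, -0.21 to 0.18 for ZFPM1, -0.21 to 0.030 for KLF1 and -0.14 to 0.0070 for NFE2. Between gRNA lengths they were -0.0062 to 0.16 for GATA1, -0.029 to 0.077 for GATA2, -0.070 to 0.046 for LMO2, -0.074 to 0.0055 for LDB1, -0.11 to 0.12 for ZFPM1, -0.12 to 0.028 for KLF1, -0.049 to 0.046 for NFE2 and -0.022 to 0.14 for MYB. Log2 differences of ratios that took both signs were -0.17 to 0.0075 for GATA1/GATA2, -0.099 to 0.21 for KLF1/MYB, -0.15 to 0.030 for ZFPM1/GATA1 and -0.017 to 0.15 for NFE2/GFI1B with the 16-nt gRNA, -0.081 to 0.10 for ZFPM1/GATA1 and -0.11 to 0.056 for NFE2/GFI1B with the full-length gRNA, and -0.044 to 0.14 for GATA1/GATA2, -0.043 to 0.11 for TAL1/LMO2 and -0.064 to 0.071 for LDB1/LMO2 between gRNA lengths. The cause was not tested.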
